A study of Mus musculus with 16 samples.

Results

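The genes of DNA replication and S phase were followed through stem and progenitor cells that express PU.1 at normal or at very low levels. The set holds 47 genes of the 54347 in the deposited table, found by exact match of the gene symbol, and every one of them had enough counts to be tested in each comparison. It was divided by role into 9 licensing genes, 8 genes that activate the replicative helicase, 6 genes of the sliding clamp and its loader, 12 genes of polymerases, primase, single-strand binding, flap removal and ligation, 3 of nucleotide supply, 5 of repair and histone supply, and 4 E2F and cyclin E genes.

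RNA was sequenced from LSKs, the Lin-Sca-1+c-Kit+ marrow cells that include stem cells and multipotent progenitors, and from GMPs, the granulocyte-monocyte progenitors sorted as Lin-Sca-1-c-Kit+Cd16/32+. Both populations came from the femurs of young adult C57BL/6 mice after bead enrichment for c-Kit. URE mice lack, in every cell of the body, the upstream regulatory element, an enhancer of *Spi1*, the gene of PU.1, and WT mice were their littermates with an intact enhancer. The labels name no treatment. There were 4 libraries of each genotype in each cell type, 16 in all, and the sources do not state whether LSKs and GMPs of one number came from the same mouse.

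Before S phase, origins are licensed: *Cdc6* and *Cdt1* load the ring of *Mcm2* to *Mcm7* onto DNA, and *Gmnn*, which encodes geminin, blocks reloading. The kinase of *Cdc7* and *Dbf4* and the factors *Cdc45*, *Mcm10* and GINS (*Gins1* to *Gins4*) turn the ring into a moving helicase, behind which primase and the polymerases copy DNA on the clamp encoded by *Pcna*. Most of these genes are E2F targets whose transcripts peak around the entry into S phase, so that in a sorted population their level is commonly read as a mark of cycling cells, and stem cells in adult marrow are mostly quiescent.

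Total counts per library lay between 20028302 and 29128858, and the members' counts in single libraries ranged from 58 for *Ccne1* to 44976 for *Mcm6*. Values are given as CPM, counts relative to the library's total after TMM scaling, and the tests are edgeR's quasi-likelihood tests adjusted over all genes tested, where a call needs a fold above 1.5 together with an adjusted p below 0.05. As a check of the genotype labels, *Spi1* stood at 127, 69.5, 134 and 166 CPM in WT LSKs 1 to 4 and at 2.85, 4.44, 3.67 and 1.13 CPM in URE LSKs. In GMPs it stood at 139, 84.8, 181 and 153 CPM in WT and at 17.4, 28.6, 23.6 and 15.6 CPM in URE. No URE library reached the level of any WT library. *Ly6a*, which encodes Sca-1 of the LSK gate, lay between 35.1 and 122 CPM in LSKs and between 0.564 and 2.88 CPM in GMPs. The p-values measure the spread between these libraries, and in bulk samples fewer cells of a type and less RNA per cell cannot be told apart.

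One library stood apart within its group. The median over the 47 genes of log2 CPM minus the gene's mean over 16 libraries was -0.49 in URE LSK replicate 3, against -0.05, 0.13 and -0.02 in URE LSK replicates 1, 2 and 4. It was the lowest library of its group for 36 of the 47 genes. Its median over 12 mitosis genes was -1.24, where the other URE LSK libraries had -0.46, 0.05 and -0.02. The 4 megakaryocyte markers summed to 391 CPM in it and to 58.8 to 154 CPM in the other URE LSKs, with none of the 4 at 0. Its erythroid markers summed to 80.6 CPM, against 19.6 to 32.4 CPM in the others. Its mast cell and basophil markers summed to 155 CPM, against 84.8 to 109 CPM. For the 47 genes, the counts of calls and the medians of the main edgeR tests that use this library are given below with and without it. For single genes, values without it are given only where the call changed. Fits with the replicate number as a block, and tests of neighbouring genes and markers, are given with it only.

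**Figure D1:**
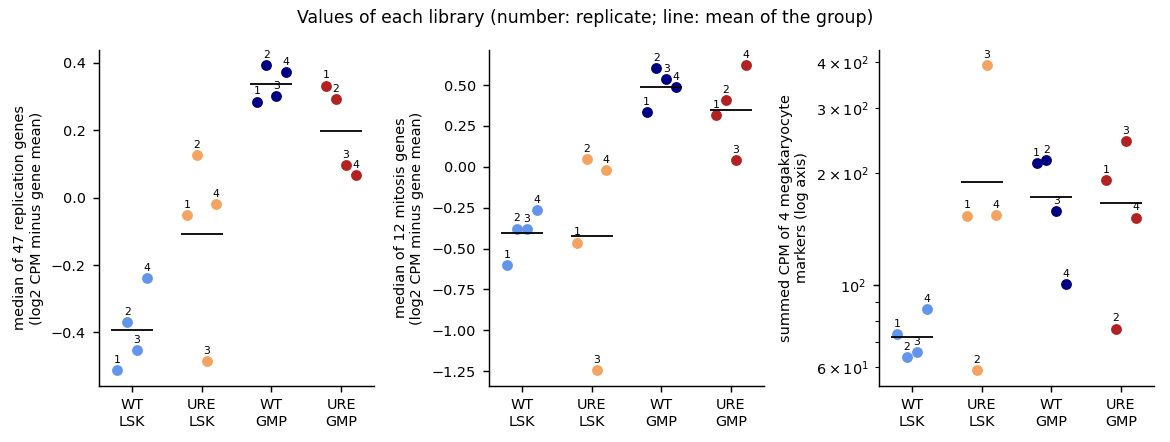
Each point is a library with its replicate number, and lines are means of 4 libraries. The left panel plots the median deviation of the 47 replication genes (log2 CPM minus the gene's mean over 16 libraries), the middle panel that of 12 mitosis genes, and the right panel the summed CPM of 4 megakaryocyte markers on a log axis. URE LSK replicate 3 lies at -0.49 and -1.24, below the other URE LSKs, and at 391 CPM, above them.

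A second division ran through all 4 groups. *Pold1*, the catalytic subunit of polymerase delta, lay between 247 and 501 CPM in replicates 1 and 4 of every group and between 51.7 and 149 CPM in replicates 2 and 3. *Mcm2*, *E2f8* and *Pole* were also higher in replicates 1 and 4 in each group, with median log2 differences over the groups of 1.16, 1.25 and 0.56. The reverse held for *Exo1* (-0.65), *Rpa3* (-0.63), *Gins1* (-0.49), *Prim1* (-0.48) and *Ccne2* (-0.43). These differences are a description, since the labels name no batch. Both sets hold each genotype, but within replicates 2 and 3 genotype ran with sex, as read from the Y-linked transcripts given below. Replicate numbers were taken as pairing the libraries, which the labels do not state. A fit with the number as a block is given for the 47 genes. It appears where it changes a call described below or moves a count by over 1.5 times.

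The genes spanned a wide range of levels, compared here as CPM per kilobase of exon (mean ± SD, n = 4). In WT LSKs the helicase subunits *Mcm6* and *Mcm3* led with 180.2 ± 29.98 and 129.7 ± 26.0, followed by the flap endonuclease gene *Fen1* with 119 ± 10.5 and *Pcna* with 109.9 ± 14.7. *Mcm3*, *Fen1* and *Pcna* lay within their spread of one another. In WT GMPs *Fen1*, *Mcm6* and *Rrm2*, the small subunit of ribonucleotide reductase, led with 278 ± 47.5, 262 ± 45.3 and 257 ± 31.2, and their order was within the spread. *Rrm2* ranked 8 in WT LSKs, at 71.3 ± 6.55. URE LSKs kept the first 4 places of WT LSKs, with *Mcm6* at 265 ± 46.2. The low end was shared by the groups: *Ccne1* was the last gene in each, from 1.04 ± 0.154 in WT LSKs to 2.31 ± 0.837 in WT GMPs, and *E2f1* and the kinase regulator *Dbf4* were among the last 4.

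Promoters were read for 37 of the 47 genes from RefSeq sequences of GRCm38.p6, each window running from 250 bases before to 50 bases after the start. The E2F motif was searched as TTTCCCGC, TTTCGCGC, TTTGCCGC and TTTGGCGC on both strands, and the shorter core as GGCGGGA on both strands. An 8-letter motif lay in the window of 12 of the 37 genes (32.4%), against 704 of 27025 gene symbols (2.6%). It was found in 6 of 7 licensing genes and in none of the 3 nucleotide supply genes. The core lay in 16 of 37 (43.2%), against 12.75% of symbols, and 23 of 37 genes held either form. A match describes letters in a window and is not a binding site.

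The stretches upstream of 6 genes are shown because library values and tests of these genes are given below. Their positions are chr1:128359706-128359885, minus strand for *Mcm6*, chrX:93632156-93632335, minus strand for *Pola1*, chr16:93883721-93883900, plus strand for *Chaf1b*, chr5:117389048-117389138, minus strand for *Rfc5*, chr16:18812079-18812222, minus strand for *Cdc45* and chr12:24708061-24708240, plus strand for *Rrm2*. Capitals mark either motif form read on either strand, and adjoining capitals can hold overlapping matches. *Mcm6* holds a pair of overlapping motifs and a further one, *Pola1* holds 1 motif, *Chaf1b* holds the core, and the stretches of *Rfc5*, *Cdc45* and *Rrm2* hold neither form.
Mcm6: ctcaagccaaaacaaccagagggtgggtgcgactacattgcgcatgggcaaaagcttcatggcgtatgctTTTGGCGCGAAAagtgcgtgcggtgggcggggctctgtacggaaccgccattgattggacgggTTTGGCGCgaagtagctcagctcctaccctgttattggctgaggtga
Pola1: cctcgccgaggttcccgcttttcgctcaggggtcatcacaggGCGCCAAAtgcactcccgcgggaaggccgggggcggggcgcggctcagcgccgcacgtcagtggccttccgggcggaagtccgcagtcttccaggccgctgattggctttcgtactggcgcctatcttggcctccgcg
Chaf1b: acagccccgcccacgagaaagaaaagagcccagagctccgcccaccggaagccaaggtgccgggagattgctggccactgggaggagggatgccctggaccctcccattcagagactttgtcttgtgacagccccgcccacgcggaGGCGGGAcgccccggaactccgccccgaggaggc
Rfc5: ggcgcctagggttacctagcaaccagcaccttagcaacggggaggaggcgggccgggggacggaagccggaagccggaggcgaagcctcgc
Cdc45: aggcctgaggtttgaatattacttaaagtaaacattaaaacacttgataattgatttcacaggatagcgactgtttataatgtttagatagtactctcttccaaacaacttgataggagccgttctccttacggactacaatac
Rrm2: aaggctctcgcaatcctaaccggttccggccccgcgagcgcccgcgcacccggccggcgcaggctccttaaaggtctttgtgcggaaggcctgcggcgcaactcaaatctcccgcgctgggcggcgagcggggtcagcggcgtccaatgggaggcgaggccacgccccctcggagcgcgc

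**Figure D2:**
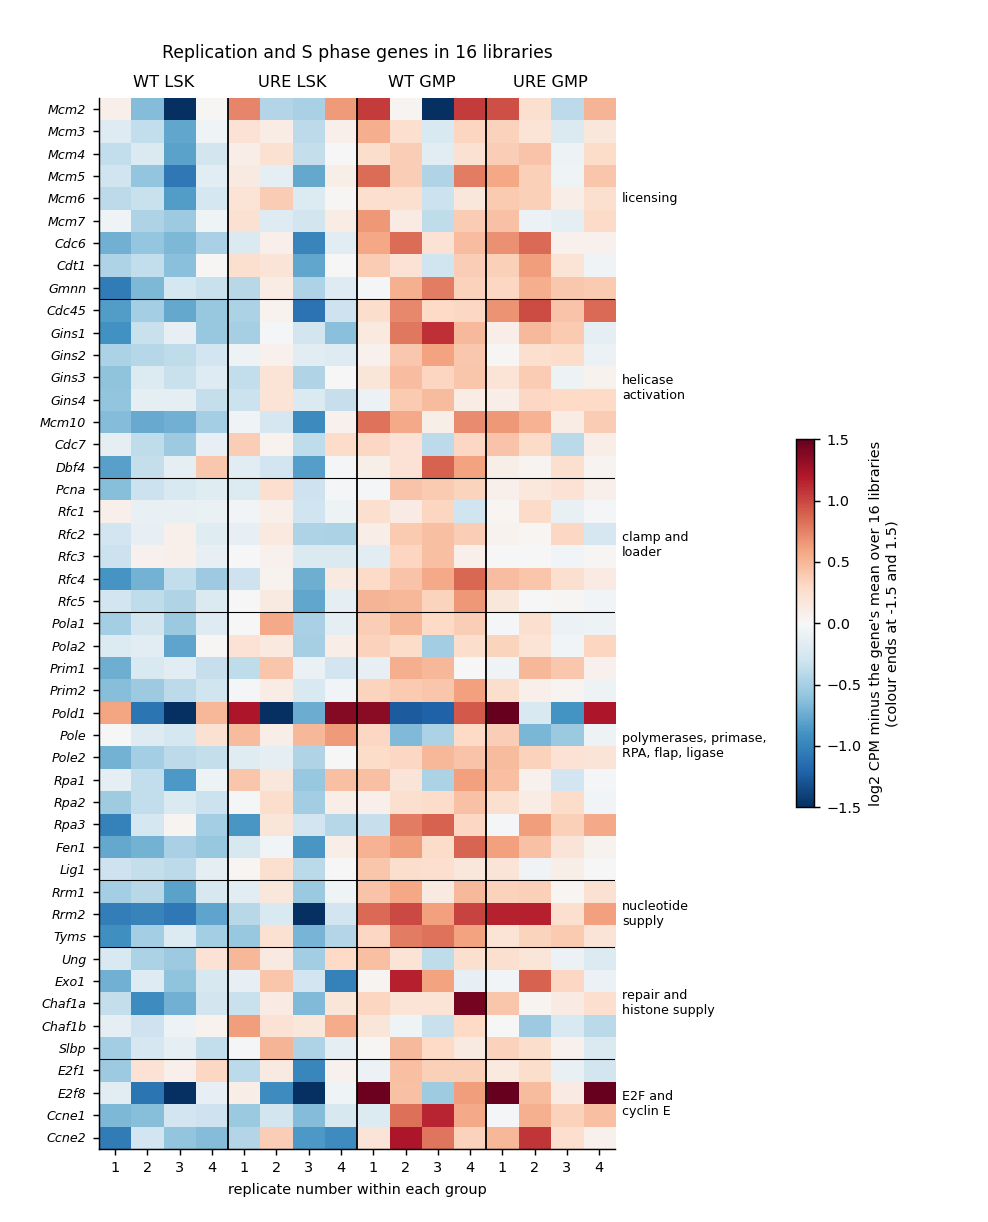
Rows are the 47 genes by role and columns the 16 libraries by group and replicate number. Colour is log2 CPM minus the gene's mean over the 16 libraries, cut at -1.5 and 1.5. The WT LSK columns are mostly below 0 (medians -0.51 to -0.24) and the WT GMP columns mostly above it (medians 0.28 to 0.39).

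Loss of the enhancer was first examined in LSKs. No replication gene passed the test between URE and WT LSKs, although 42 of the 47 differences were positive. Of the 15154 genes tested, 2.38% were called higher and 3.76% lower in URE, and 50.1% had a positive difference. The members' median log2 fold change was 0.27, with 0.00 for all genes. At an unadjusted p under 0.05 there were 4 members, against 2325 of the 15154 genes tested. DESeq2 called 0 of the 47, where it called 5.67% of all genes with a p-value. The 95% interval of the difference included 0 for 43 genes and lay above 0 for 4, with a median half-width of 0.49 on the log2 scale, so that differences of this order could be missed. Within replicates 1 and 4 the members' median was 0.25, and within replicates 2 and 3 it was 0.26.

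The gene with the smallest adjusted p was *Chaf1b*, which encodes a subunit of the chromatin assembly factor that deposits histones behind the fork. It stood at 149.7, 132, 155 and 170.3 CPM in WT LSKs 1 to 4 and at 253, 191, 185 and 241 CPM in URE LSKs. Every URE library lay above every WT library, and the log2 fold change was 0.49 ± 0.16 (SE, 95% interval 0.12 to 0.85, edgeR adjusted p = 0.148). *Mcm6* had the same arrangement. It stood at 869, 908, 637 and 950.2 CPM in WT LSKs 1 to 4 and at 1311, 1491, 988 and 1153 CPM in URE LSKs. The groups did not overlap, and the difference was 0.53 ± 0.19 (SE, 95% interval 0.11 to 0.95, edgeR adjusted p = 0.177). *Mcm4*, another subunit of the ring, was not separated. It stood at 293, 327, 219 and 315 CPM in WT LSKs 1 to 4 and at 407, 444, 296 and 379.9 CPM in URE LSKs. URE replicate 3 lay within the WT range, and the difference was 0.38 ± 0.18 (SE, 95% interval -0.02 to 0.78, edgeR adjusted p = 0.368).

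For *Prim2*, the large subunit of primase, the URE libraries were again all above the WT libraries. It stood at 61.6, 65.9, 73.0 and 78.0 CPM in WT LSKs 1 to 4 and at 95.3, 103, 82.2 and 93.5 CPM in URE LSKs. The difference was 0.40 ± 0.15 (SE, 95% interval 0.05 to 0.74, edgeR adjusted p = 0.230). *Pole*, the catalytic subunit of the leading-strand polymerase epsilon, overlapped between genotypes. It stood at 105, 92.2, 88.2 and 124 CPM in WT LSKs 1 to 4 and at 147, 113, 149.7 and 165 CPM in URE LSKs. In each same-numbered pair the URE library was the higher, and the difference was 0.46 ± 0.17 (SE, 95% interval 0.07 to 0.85, edgeR adjusted p = 0.213). *Gins2*, a subunit of the GINS complex, did not overlap but differed little. It stood at 70.2, 72.1, 74.5 and 80.0 CPM in WT LSKs 1 to 4 and at 92.5, 102, 87.1 and 85.1 CPM in URE LSKs. The log2 fold change was 0.27 ± 0.14 (SE, 95% interval -0.04 to 0.59, edgeR adjusted p = 0.436), and *Gins2* shares 2758 exonic bases with *Gse1* on the other strand, from which unstranded reads cannot be told apart.

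By role, 9 of 9 licensing genes were positive with a median of 0.32, as were 12 of 12 genes of the polymerase group (0.34), 3 of 3 nucleotide supply genes (0.32) and 5 of 5 repair and histone supply genes (0.35). Of the 8 helicase activators 7 were positive, with a median of 0.20. The clamp and loader genes were split 3 to 3, with a median of 0.04, and the E2F and cyclin E genes 3 to 1, with 0.06. The 4 genes without overlap between genotypes (*Mcm6*, *Gins2*, *Prim2* and *Chaf1b*) compare with 5.66% of all genes tested. With the replicate block 1 gene was called, *Mcm2* at 0.62 ± 0.15 (SE, edgeR adjusted p = 0.0439), where 3.83% of all genes were called higher. *Mcm2* stood at 469.6, 284, 148 and 451 CPM in WT LSKs and at 743, 328, 318 and 693 CPM in URE LSKs, with replicates 1 and 4 high in both genotypes.

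Without URE LSK replicate 3, 43 of the 47 differences were positive, the median was 0.41, and *Rrm2* was called higher at 0.64 ± 0.14 (SE, edgeR adjusted p = 0.0355), where 2.28% of all genes were called higher. Markers of other cells differed between the same groups. Of 4 monocyte progenitor markers 3 were lower in URE LSKs, and of 5 later neutrophil markers 1 was higher, or 4 with the replicate block. The 5 lymphoid markers summed to 287 to 632 CPM in WT LSKs and to 65.0 to 216 CPM in URE LSKs, with *Dntt* called lower at -1.98 ± 0.40 (SE, edgeR adjusted p = 0.0175). With the block *Il7r* was lower too. *Pax5* was near or at 0 in both genotypes. The 3 mast cell and basophil markers summed to 21.7 to 42.1 CPM in WT and to 84.8 to 155 CPM in URE, and *Cpa3* and *Mcpt8* were called higher. The third, *Prss34*, had a negative difference of -0.94 and was not called. Of the pair of dendritic cell markers, *Cd74* was called lower at -2.04 ± 0.37 (SE, edgeR adjusted p = 0.0109) and *Siglech* had 1 to 38 counts in WT LSK libraries and 0 in each URE LSK library. *Cd34*, a progenitor surface marker, was also lower, at -1.31 ± 0.21 (SE, edgeR adjusted p = 0.00637). *Fcgr2b* had 357 to 408 counts in WT LSK libraries and 0 to 31 counts in URE LSK libraries, and was called lower at -4.77 ± 0.78 (SE, edgeR adjusted p = 0.00640). Of the 6 erythroid markers *Hbb-bt* was called lower, with 2 differences positive and 4 negative (-4.54 to 2.29). Of the megakaryocyte markers *Itga2b* was called higher, with 3 differences positive and 1 negative. This list's median changed sign between the replicate sets, from -0.70 (1 and 4) to 1.38 (2 and 3). *Pf4* had 271 to 426 counts in WT LSKs and 198, 84, 1818 and 61 in URE LSKs 1 to 4. *Gp9* had 150 to 314 counts in WT LSKs and 95, 68, 443 and 83 in URE LSKs 1 to 4. Of the neutrophil progenitor markers *Elane* was called higher and *Prtn3* lower. The part of these cell types in the replication values was not tested.

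In GMPs none of the 47 genes passed the test between genotypes, 39 differences were negative and 8 positive, and the median was -0.13, with 0.01 for all genes. Of 13829 genes tested, 4.67% were called higher and 3.63% lower in URE GMPs. Here 4 members had an unadjusted p under 0.05, against 2808 of the 13829 genes. DESeq2 called 0 members at this fold, where it called 7.22% of all genes with a p-value. The 95% interval included 0 for 43 members. The 3 genes whose genotypes did not overlap, each lower in URE (*Rfc5*, *Pola1* and *Prim2*), compare with 6.98% of all genes. Within replicates 1 and 4 the members' median was -0.18, and within replicates 2 and 3 it was -0.15. It was -0.21 without URE GMP replicate 1, the lowest value when single libraries were left out, and -0.11 without URE GMP replicate 3, the highest.

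*Rfc5* encodes a small subunit of replication factor C, which opens the clamp and loads it. It stood at 334, 331, 298 and 369 CPM in WT GMPs 1 to 4 and at 265, 235, 237 and 229 CPM in URE GMPs. Every URE value lay under every WT value, and the difference was -0.47 ± 0.13 (SE, 95% interval -0.76 to -0.18, edgeR adjusted p = 0.0568). With the replicate block it was -0.47 ± 0.12 (SE, edgeR adjusted p = 0.0321), and its fold stayed under 1.5. The block raised the share of all genes called from 8.30% to 16.3%. *Rfc5* shares 499 exonic bases with *Wsb2* on the other strand. *Pola1*, the catalytic subunit of polymerase alpha, which extends the primers, was also separated. It stood at 306, 335, 292 and 307 CPM in WT GMPs 1 to 4 and at 233, 280.2, 223 and 225 CPM in URE GMPs. The difference was -0.38 ± 0.13 (SE, 95% interval -0.66 to -0.09, edgeR adjusted p = 0.116), and URE replicate 2 was the highest of its group.

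*Prim2* was the third gene with separated genotypes. It stood at 121, 126, 129 and 147 CPM in WT GMPs 1 to 4 and at 115, 101, 98.7 and 91.2 CPM in URE GMPs. Its difference of -0.37 ± 0.14 (SE, 95% interval -0.69 to -0.06, edgeR adjusted p = 0.166) had the sign opposite to that in LSKs. *Tyms*, the thymidylate synthase gene, stood at 257, 354, 365 and 315 CPM in WT GMPs and at 239, 262, 272 and 237 CPM in URE GMPs. It was lower in URE in each of the 4 pairs, with a difference of -0.37 ± 0.16 (SE, 95% interval -0.72 to -0.01, edgeR adjusted p = 0.223). *Gins1*, another GINS subunit, was likewise lower in each pair. It stood at 39.5, 61.8, 76.0 and 49.96 CPM in WT GMPs 1 to 4 and at 38.1, 49.9, 46.9 and 32.2 CPM in URE GMPs. The difference was -0.46 ± 0.25 (SE, 95% interval -1.01 to 0.10, edgeR adjusted p = 0.349).

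*Cdc45*, the helicase cofactor that travels with the ring, was among the 8 genes with a positive difference. It stood at 65.1, 89.5, 67.1 and 67.5 CPM in WT GMPs 1 to 4 and at 86.8, 107, 73.1 and 97.6 CPM in URE GMPs. URE was higher in each pair while the groups overlapped, and the difference was 0.32 ± 0.17 (SE, 95% interval -0.06 to 0.71, edgeR adjusted p = 0.343). By role, all 6 clamp and loader genes were negative (median -0.23), as were the 3 nucleotide supply genes (-0.18) and the 5 repair and histone supply genes (-0.21). The licensing genes were close to 0, with a median of -0.04 and 3 of 9 positive. Of the helicase activators 2 were positive and 6 negative (-0.18), and of the polymerase group 2 and 10 (-0.11). Of the E2F and cyclin E genes 1 was positive and 3 were negative (-0.23). Beside these values, monocyte progenitor markers were lower in URE GMPs for 4 of 4 genes. Their summed level was 48.2 to 99.3 in WT LSKs, 9.45 to 17.6 in URE LSKs, 490.4 to 829.6 in WT GMPs and 45.8 to 234 in URE GMPs (CPM), with none at 0. The dendritic cell marker *Cd74* was lower at -4.42 ± 0.51 (SE, edgeR adjusted p = 0.00117), as were the lymphoid markers *Il7r* and *Dntt* and *Prss34* of the mast cell and basophil list. Of the gate markers *Cd34* was lower at -1.80 ± 0.14 (SE, edgeR adjusted p = 0.000283), and *Fcgr3*, which encodes Cd16, was higher at 1.34 ± 0.32 (SE, edgeR adjusted p = 0.0326). The later neutrophil marker *Ngp* and *Mcpt8* of the mast cell and basophil list were also higher. The block, under which 16.3% of all genes were called, added 3 of the other 4 later neutrophil markers and 3 of 4 neutrophil progenitor markers as higher. It also added *Meis1*, *Procr* and *Hoxa9* of 7 stem cell markers and *Fcgr2b* as lower. Without the block the 7 stem cell markers had 4 positive and 3 negative differences, with a median of 0.18. The 4 neutrophil progenitor markers took up to 158845 CPM of a URE GMP library, and with the most abundant genes left out of the scaling the members' median was -0.14. The part of these cell types in the result was not tested.

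**Figure D3:**
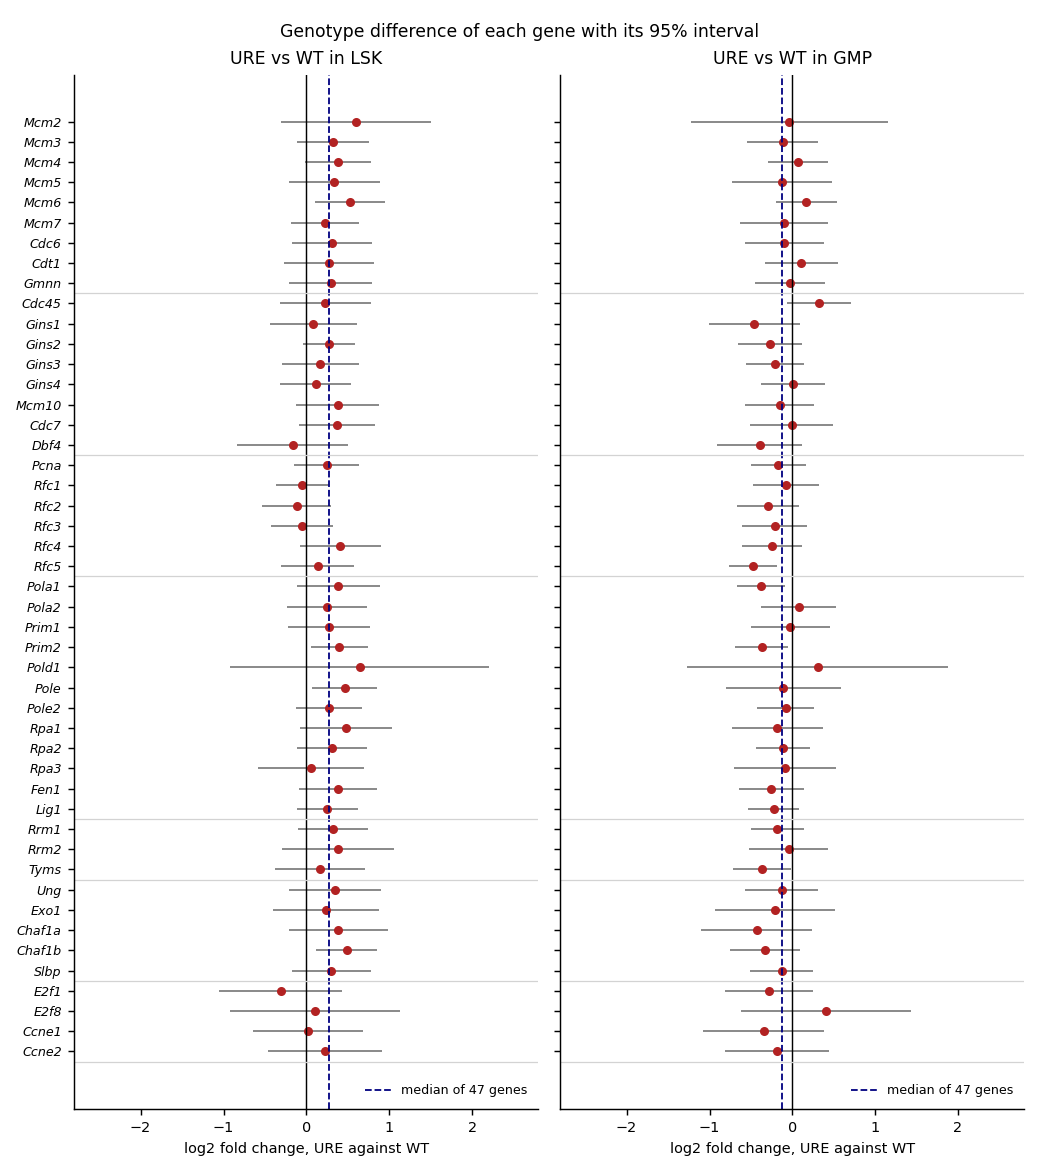
Points are log2 fold changes of URE against WT in LSKs (left) and GMPs (right) for the 47 genes by role, grey lines are 95% intervals, and dashed lines are the medians of 0.27 and -0.13. Points lie mostly right of 0 in LSKs and mostly left of 0 in GMPs, and 43 of the 47 intervals include 0 in each panel.

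The normal step from LSK to GMP was examined in WT mice. Of the 47 genes 23 rose and 0 fell, and 46 differences were positive. No member had a negative difference at an unadjusted p under 0.05, which 5911 of the 14767 genes tested reached in either direction. DESeq2 called 0 members lower, against 2872 of 28841 genes. Among 14767 genes tested, 11.5% were called higher and 15.8% lower in GMPs. The members' median was 0.66 and that of all genes -0.09. Another 4 members passed the adjusted p at a smaller fold. Over all genes, 1884 were higher at the adjusted p alone and 1702 at both thresholds. The WT groups did not overlap for 28 genes, all higher in GMPs, against 13.7% of all genes. The block gave 28 called genes, adding *Mcm2*, *Dbf4*, *Prim1*, *Rpa3* and *E2f8*, with 15.8% of all genes called higher. Within replicates 1 and 4 the members' median was 0.65, and within replicates 2 and 3 it was 0.79.

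*Rrm2*, whose product sets the rate of deoxynucleotide synthesis, had the largest rise. It stood at 188, 194, 184 and 224 CPM in WT LSKs 1 to 4 and at 699.6, 767, 594 and 785 CPM in WT GMPs. The groups lay far apart, and the log2 fold change was 1.84 ± 0.15 (SE, 95% interval 1.51 to 2.17, edgeR adjusted p = 6.1e-05). *Ccne2*, a cyclin E gene that drives the entry into S phase, came next. It stood at 46.9, 80.1, 64.5 and 62.1 CPM in WT LSKs 1 to 4 and at 111, 227, 169.9 and 124 CPM in WT GMPs. The groups did not overlap, and the change was 1.31 ± 0.26 (SE, 95% interval 0.72 to 1.89, edgeR adjusted p = 0.00557). *Ccne2* shares 609 exonic bases with *Ints8* on the other strand.

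*Mcm10*, which helps to activate the helicase, was also separated. It stood at 50.4, 47.1, 48.3 and 55.7 CPM in WT LSKs 1 to 4 and at 139.7, 118, 84.7 and 130.4 CPM in WT GMPs. Its rise was 1.22 ± 0.18 (SE, 95% interval 0.81 to 1.63, edgeR adjusted p = 0.00143). *Fen1*, which trims the flaps of Okazaki fragments, was among the leading genes in both cell types. It stood at 262, 274, 319 and 301 CPM in WT LSKs 1 to 4 and at 642, 689, 543 and 819.7 CPM in WT GMPs. Its change was 1.21 ± 0.16 (SE, 95% interval 0.85 to 1.57, edgeR adjusted p = 0.000746), and 1909 of its exonic bases overlap *Gm10143* on the other strand. *Chaf1a*, the large subunit of the chromatin assembly factor, had 1 library far from the rest. It stood at 15.9, 10.5, 12.3 and 16.8 CPM in WT LSKs 1 to 4 and at 25.3, 23.5, 23.5 and 54.8 CPM in WT GMPs. WT GMP replicate 4 was far above the other GMP libraries, the change was 1.19 ± 0.33 (SE, 95% interval 0.45 to 1.92, edgeR adjusted p = 0.0238), and *Chaf1a* shares 4648 exonic bases with *Ubxn6*, so that its value is uncertain.

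Every role had genes that rose. Among licensing genes 3 of 9 did, *Cdc6* (1.15), *Gmnn* (0.97) and *Mcm5* (0.94), while the other ring subunits had positive differences that were not called. Of the helicase activators 5 of 8 rose, *Mcm10* (1.22), *Gins1* (1.12), *Cdc45* (1.07), *Gins2* (0.76) and *Gins3* (0.66). Of the clamp and its loader 3 of 6 rose, *Rfc4* (1.16), *Rfc5* (0.82) and *Pcna* (0.62). Of the polymerase group 5 of 12 rose, *Fen1* (1.21), *Prim2* (0.90), *Pole2* (0.86), *Pola1* (0.75) and *Rpa2* (0.61), where *Rpa2* encodes part of the single-strand binding complex. The values in brackets are log2 fold changes with adjusted p from 6.1e-05 to 0.0418 over the called genes (edgeR). Shorter stretches are shared on the other strand by *Cdc45* with *Ufd1* (209 exonic bases), by *Lig1* with *Zswim9* (247) and by *Rfc4* with *Eif4a2* (194), and by *Pole2* with *Gm49384* on its own strand (245).

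All 3 nucleotide supply genes rose, *Rrm2* (1.84), *Tyms* (1.14) and *Rrm1* (0.89). Of repair and histone supply, *Chaf1a* and the exonuclease gene *Exo1* (0.93) rose, and *Chaf1b* (0.14), the uracil glycosylase gene *Ung* (0.38) and the histone mRNA binder *Slbp* (0.55) were not called. Both cyclin E genes rose, with *Ccne1* at 1.14, whereas *E2f1* (0.22) and *E2f8* (1.28), an activator and a repressor of the network, were not called. *Pole* was the 1 gene with a negative value, -0.03 ± 0.25 (SE, 95% interval -0.60 to 0.54, edgeR adjusted p = 0.946). Leaving out single libraries gave 17 to 30 called genes, where 21.1% to 28.1% of all genes were called in either direction (27.3% with all libraries). Of the 23 genes 16 were called in all 8 such fits, and *Mcm5* was called in 1 of them, *Exo1* and *Ccne1* in 2 each. *Chaf1a* was lost without WT LSK replicate 2 (edgeR adjusted p = 0.0656) or 3 (edgeR adjusted p = 0.0539).

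In URE mice the step from LSK to GMP left 4 replication genes higher and 1 lower, with 41 positive differences and a median of 0.22. Of 14395 genes tested, 9.20% were called higher and 12.6% lower in GMPs, and the median of all genes was -0.09. The 95% interval included 0 for 32 of the 47 genes. URE groups did not overlap for 8 genes that were higher in GMPs, against 12.3% of all genes, and for 1 that was lower, against 14.3%. Within replicates 1 and 4 the members' median was 0.20, and within replicates 2 and 3 it was 0.31. Leaving out single libraries gave 0.18 (without URE LSK replicate 3) to 0.39 (without URE LSK replicate 2).

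*Cdc45* rose in URE as in WT. It stood at 39.0, 56.1, 25.2 and 43.6 CPM in URE LSKs 1 to 4 and at 86.8, 107, 73.1 and 97.6 CPM in URE GMPs. The groups did not overlap, and the log2 fold change was 1.11 ± 0.24 (SE, 95% interval 0.57 to 1.65, edgeR adjusted p = 0.00994), beside 1.07 in WT. *Rrm2* rose as well. It stood at 291, 331, 110.0 and 317 CPM in URE LSKs 1 to 4 and at 862, 866, 459 and 592 CPM in URE GMPs. URE LSK replicate 3 was the lowest of its group, and the change was 1.36 ± 0.35 (SE, 95% interval 0.58 to 2.14, edgeR adjusted p = 0.0206). *Gmnn* stood at 56.0, 80.6, 53.9 and 65.1 CPM in URE LSKs and at 92.6, 109, 98.7 and 97.7 CPM in URE GMPs, and its change was 0.60 ± 0.16 (SE, 95% interval 0.23 to 0.97, edgeR adjusted p = 0.0284).

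*E2f8*, a repressor of the E2F network, also rose. It stood at 46.7, 22.6, 12.8 and 41.6 CPM in URE LSKs 1 to 4 and at 135, 60.7, 47.4 and 125 CPM in URE GMPs. Libraries 1 and 4 were the high ones in both cell types, and the change was 1.53 ± 0.47 (SE, 95% interval 0.47 to 2.58, edgeR adjusted p = 0.0440), with 1.28 in WT where it was not called. *E2f8* overlaps *Gm2788* on the other strand over 610 bases. *Chaf1b* was the 1 gene that fell. It stood at 253, 191, 185 and 241 CPM in URE LSKs 1 to 4 and at 164, 112, 139.5 and 124 CPM in URE GMPs. Every GMP library was under every LSK library, with a change of -0.73 ± 0.19 (SE, 95% interval -1.14 to -0.31, edgeR adjusted p = 0.0207), against 0.14 in WT. *Rpa3*, the smallest subunit of the single-strand binding complex, was next by adjusted p and was not called. It stood at 39.6, 82.8, 59.6 and 54.1 CPM in URE LSKs 1 to 4 and at 71.7, 113, 92.9 and 108 CPM in URE GMPs. The difference was 0.67 ± 0.24 (SE, 95% interval 0.13 to 1.20, edgeR adjusted p = 0.0755).

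With the replicate block 9 genes were higher and 2 lower in URE GMPs, with 13.3% and 18.6% of all genes. Besides the 5 above, these were *Cdc6* (0.70), *Mcm10* (0.67), *Rpa3* (0.69), *Tyms* (0.61) and *Ccne2* (0.90), higher, and *Pole* (-0.71), lower. Without URE LSK replicate 3 the counts were 2 higher (*Cdc45* and *Rrm2*) and 1 lower (*Chaf1b*), where 8.71% and 10.8% of all genes were called. *Gmnn* (0.57, edgeR adjusted p = 0.0620) and *E2f8* (1.32, edgeR adjusted p = 0.0656) were then not called. Without URE GMP replicates 1, 2 or 4 the called genes numbered 3, 1 and 2, and without URE LSK replicates 1 or 4 they numbered 3 and 2. In these 5 fits 14.6% to 17.6% of all genes were called in either direction, against 21.8% with all libraries. Over the 8 fits that left out 1 library, *Cdc45* was called in 8, *Rrm2* in 6, *Chaf1b* in 4, *E2f8* in 2 and *Gmnn* in 1. Fitted on replicates 1 and 4 only, 7 members rose and 1 fell, where 13.8% and 14.9% of all genes were called. On replicates 2 and 3 only, 0 were called, with 2.47% and 3.04% of all genes, so that both counts moved with the share over all genes.

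**Figure D4:**
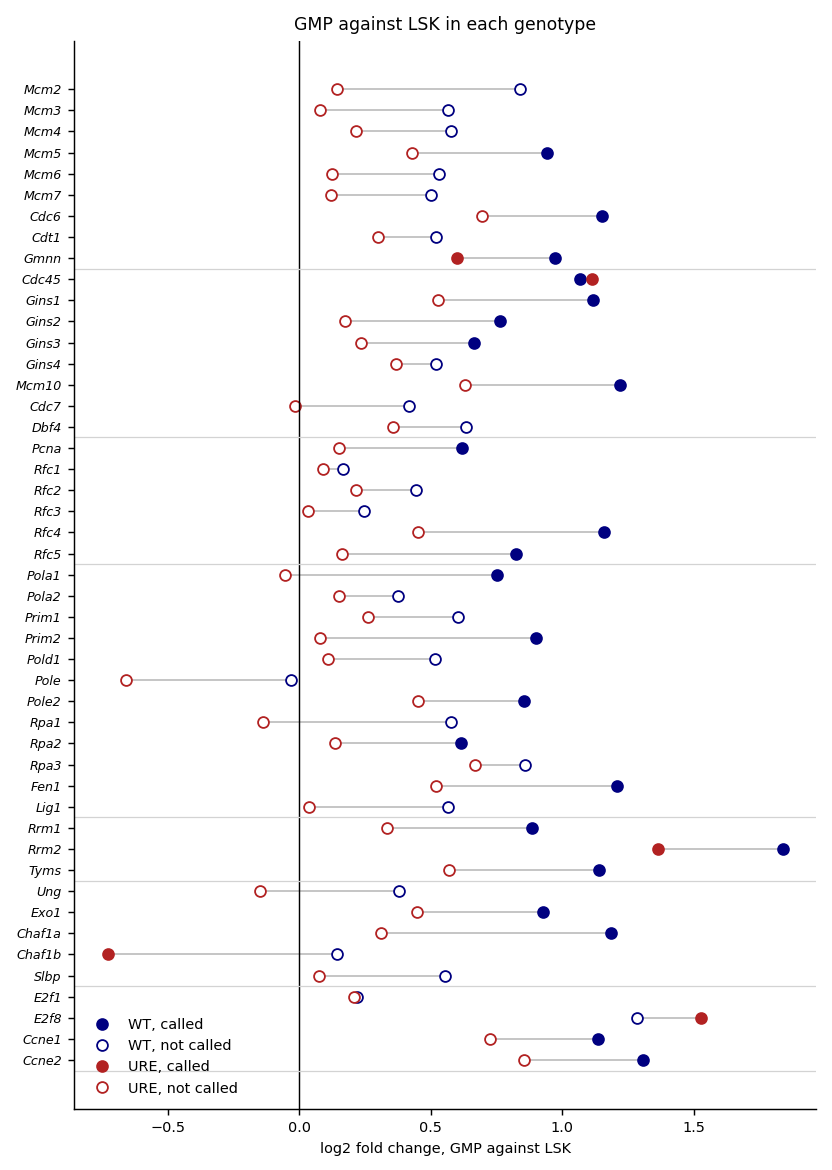
Each row is a gene, with its log2 fold change of GMP against LSK in WT (blue) and URE (red), filled where called and open where not. Filled points number 23 in WT and 5 in URE, and most red points lie left of the blue ones.

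Whether the genotype difference changed between the cell types was tested by the interaction term over all 16 libraries. A negative value means that the GMP against LSK difference was smaller in URE than in WT. Of the 47 values 44 were negative, the median was -0.44 and that of all genes 0.00, but none passed the test. Among the identity markers *Fcgr2b*, which encodes Cd32 of the GMP gate, was called positive at 3.95 ± 0.74 (SE, edgeR adjusted p = 0.0166) and *Prtn3* of the neutrophil progenitor list at 2.60 ± 0.49 (SE, edgeR adjusted p = 0.0179), and their part in these values was not tested. Of 15935 genes, 0.866% were called positive and 0.351% negative. At an unadjusted p under 0.05 there were 9 members, against 1853 of the 15935 genes. DESeq2 called 2 members, where it called 2.17% of all genes with a p-value. The 23 and 5 calls above are therefore not shown to differ gene by gene in this fit. Within replicates 1 and 4 the members' median was -0.46, and within replicates 2 and 3 it was -0.40.

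In the genotype comparisons, 34 genes were positive in LSKs and negative in GMPs, 8 were positive in both and 5 negative in both. *Prim2* had the smallest adjusted p, with -0.79 ± 0.19 (SE, 95% interval -1.19 to -0.40, edgeR adjusted p = 0.0522), from the 4 sets of libraries given above. *Chaf1b*, at 187, 157, 130.2 and 202 CPM in WT GMPs and with its other values above, had -0.84 ± 0.24 (SE, 95% interval -1.36 to -0.33, edgeR adjusted p = 0.118). For *Pola1* the interaction was -0.78 ± 0.26 (SE, 95% interval -1.34 to -0.23, edgeR adjusted p = 0.193). *Pola1* stood at 167, 195, 162 and 208 CPM in WT LSKs and at 236, 353, 169 and 217 CPM in URE LSKs. Its values in URE LSKs overlapped those in both GMP groups. *Gins2*, with its LSK values above, stood at 102, 129, 148 and 129 CPM in WT GMPs and at 98.8, 115, 118 and 91.8 CPM in URE GMPs. The GMP groups overlapped, and the interaction was -0.56 ± 0.20 (SE, 95% interval -0.98 to -0.14, edgeR adjusted p = 0.222).

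*Rfc5*, with its GMP values above, stood at 193, 181, 172 and 202 CPM in WT LSKs and at 233, 258, 137 and 213 CPM in URE LSKs. URE replicate 3 lay under every WT library and the other 3 above, and the interaction was -0.63 ± 0.23 (SE, 95% interval -1.12 to -0.14, edgeR adjusted p = 0.245). *Lig1* encodes the ligase that joins Okazaki fragments. It had 182, 176, 172 and 206 CPM in WT LSKs and 230.2, 266, 171 and 228 CPM in URE LSKs. In GMPs it had 303, 271, 268 and 255 CPM in WT and 258, 218, 241 and 226 CPM in URE. URE LSK replicate 3 was again under every WT LSK, the GMP groups overlapped, and the interaction was -0.50 ± 0.20 (SE, 95% interval -0.92 to -0.08, edgeR adjusted p = 0.291).

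With the replicate block 6 values were negative and called, against 2.60% of all genes. They were *Prim2* at -0.79 ± 0.16 (SE, edgeR adjusted p = 0.0129), *Chaf1b* at -0.82 ± 0.17 (SE, edgeR adjusted p = 0.0146), *Pola1* at -0.75 ± 0.19 (SE, edgeR adjusted p = 0.0282), the large reductase subunit gene *Rrm1* at -0.51 ± 0.14 (SE, edgeR adjusted p = 0.0401), *Rpa1* at -0.62 ± 0.17 (SE, edgeR adjusted p = 0.0434) and *Mcm3* at -0.45 ± 0.12 (SE, edgeR adjusted p = 0.0477). Without URE LSK replicate 3 and without the block, *Prim2* (-0.85, edgeR adjusted p = 0.0413) and *Rfc5* (-0.79, edgeR adjusted p = 0.0383) were called, where 0.405% of all genes were called negative, and 46 values were negative with a median of -0.56.

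**Figure D5:**
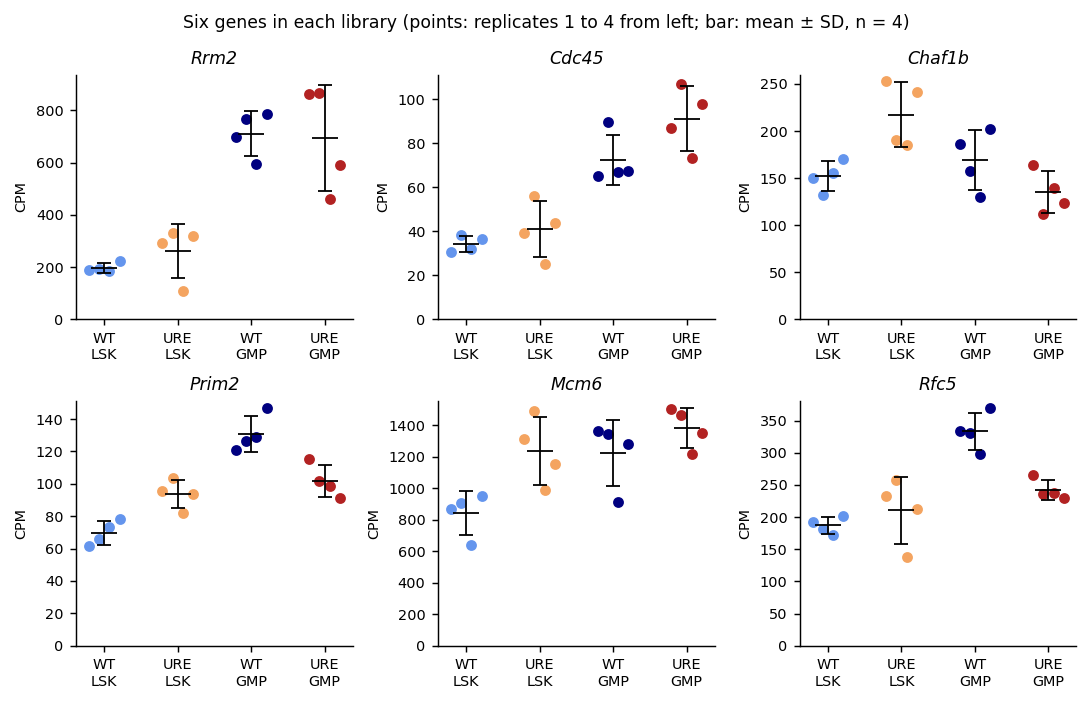
Points are the CPM of each library, replicates 1 to 4 from left to right, with the mean and SD of 4 libraries as bars and axes from 0. *Chaf1b* and *Prim2* lie higher in URE LSKs than in WT LSKs, *Rfc5* and *Prim2* lie lower in URE GMPs than in WT GMPs, and *Rrm2* and *Cdc45* lie higher in GMPs than in LSKs of both genotypes.

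Summed over the 47 genes, the level was 6786 to 8711 in WT LSKs, 7263 to 11066 in URE LSKs, 10571 to 14049 in WT GMPs and 10344 to 13733 in URE GMPs (CPM). WT LSKs and WT GMPs did not overlap, URE GMPs overlapped WT GMPs, and URE LSKs reached from the WT LSK range to the lower end of the GMP range. The low end was URE LSK replicate 3 alone, at 7263 CPM. URE LSK replicates 1, 2 and 4 stood at 10799, 11066 and 10546.5 CPM, above every WT LSK library and within the GMP range.

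Neighbouring genes of the same processes were read from separate lists. Between genotypes, 1 gene of these lists was called in each cell type, *Samhd1*, a hydrolase of deoxynucleotides, which was lower in URE LSKs at -1.06 ± 0.15 (SE, edgeR adjusted p = 0.00308) and in URE GMPs at -1.07 ± 0.18 (SE, edgeR adjusted p = 0.00712). With the replicate block 4 more were called in GMPs, *Rnaseh2c* and *Rbl2* higher and *Dscc1* and *Hells* lower. Of all genes 16.3% were called in GMPs with the block and 8.30% without it. In WT GMPs against LSKs, 3 of 6 origin recognition genes rose, among them *Orc1* at 1.07 ± 0.24 (SE, edgeR adjusted p = 0.00940), and 3 of 9 firing and fork protection genes rose (6 with the block), among them *Clspn* at 0.76 ± 0.25 (SE, edgeR adjusted p = 0.0466). Of the polymerase accessories 8 of 11 rose, including *Dna2* at 1.06 ± 0.24 (SE, edgeR adjusted p = 0.00967). Of 9 further nucleotide metabolism genes 3 rose (4 with the block), including *Tk1* at 0.96 ± 0.24 (SE, edgeR adjusted p = 0.0152), and *Rrm2b* fell.

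Of 7 replication chromatin genes 4 rose in WT GMPs, including the histone chaperone gene *Asf1b* at 1.37 ± 0.20 (SE, edgeR adjusted p = 0.00117). Of 14 genes of the E2F and RB network 1 rose, *Tfdp1*, the partner of E2F proteins, at 0.88 ± 0.20 (SE, edgeR adjusted p = 0.00943), and with the block 2 were higher and 1 lower. The mitosis list had 11 of 12 genes higher in WT GMPs, including *Cdk1* at 1.06 ± 0.15 (SE, edgeR adjusted p = 0.00111). In URE the same step gave 2 of 6 origin genes, 0 of 9 firing genes (2 at an unadjusted p under 0.05, 1 called with the block), 1 of 11 accessories, 1 of 9 metabolism genes and 3 of 7 chromatin genes higher, with *E2f5* the 1 of 14 network genes that fell, beside 1 that was higher with the block. Of the mitosis list 2 of 12 rose in URE, *Cdk1* at 0.76 ± 0.22 (SE, edgeR adjusted p = 0.0357) and *Birc5* at 1.04 ± 0.30 (SE, edgeR adjusted p = 0.0362), and 9 with the replicate block. No gene of these lists passed the interaction test, and at most 3 genes of a list had an unadjusted p under 0.05 in it. With the block 5 were called, *Rnaseh2c* positive and *Atad5*, *Pold2*, *Shmt1* and *Hells* negative.

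Markers of cell identity moved with the cell type in both genotypes. Of 7 stem cell markers 7 fell in WT GMPs and 6 in URE GMPs (7 with the block), and 4 of 4 neutrophil progenitor markers rose in both. The summed neutrophil progenitor level was 969 to 1587 in WT LSKs, 685 to 1481 in URE LSKs, 54569 to 69999 in WT GMPs and 72969 to 158845 in URE GMPs (CPM). Monocyte progenitor markers rose for 4 of 4 genes in WT and 3 of 4 in URE. Of 6 erythroid markers *Gata1*, *Klf1* and *Car1* rose in both genotypes and *Hbb-bt* fell in WT, and with the block *Hba-a1* was lower in URE. Their summed level was 47.3 to 131 in WT LSKs, 19.6 to 80.6 in URE LSKs, 163 to 479 in WT GMPs and 68.6 to 535 in URE GMPs (CPM). Of 3 mast cell and basophil markers 3 rose in WT and 2 in URE (3 with the block). *Dntt* and *Cd74* fell in both genotypes, *Il7r* and *Cd79a* fell in WT, and *S100a8* rose in URE. Megakaryocyte markers summed to 63.7 to 85.9 in WT LSKs, 58.8 to 391 in URE LSKs, 101 to 217 in WT GMPs and 76.2 to 245 in URE GMPs (CPM), with 2 of 4 higher and 1 lower in WT GMPs than in WT LSKs and none called between the cell types in URE (1 higher and 1 lower with the block). The 4 Y-linked transcripts summed to 0.0403 to 333 in WT LSKs, 0 to 213 in URE LSKs, 0 to 359.6 in WT GMPs and 0.0563 to 252 in URE GMPs (CPM). The sum was above 1 CPM in 3 of 4 WT libraries (replicates 1, 2 and 3) and in 1 of 4 URE libraries (replicate 1) of each cell type, so that sex ran with genotype. Within replicates 2 and 3 all WT and no URE libraries were above it, and there genotype and sex cannot be told apart. With a Y-linked covariate the members' median between genotypes was 0.24 in LSKs and -0.13 in GMPs, and no member was called between genotypes. Of all genes 3.36% were called with the covariate in LSKs and 4.56% in GMPs, against 6.14% and 8.30% without it. The part of the other markers in the replication values was not tested.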

How the data were processed

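RNA was measured in 16 libraries, made from low-input RNA without molecular identifiers and sequenced as unstranded pairs. Per the submitters' processing notes, reads were quantified with Salmon against GRCm38. The authors summarised transcripts to genes with tximport and deposited estimated counts, not normalized and held as whole numbers, for 54347 genes. The annotation release is not given in the sources used here. Groups and replicate numbers came from the sample labels. Every per-sample column of the table was used.

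Counts were filtered with filterByExpr, scaled by TMM and tested with the quasi-likelihood test of edgeR 4.0.16 (limma 3.58.1, R 4.3.3), separately for each pair of groups and, for the interaction, over all libraries, with Benjamini-Hochberg adjustment over all genes tested. Calls required a fold above 1.5 together with an adjusted p below 0.05, and for the interaction that adjusted p alone. Intervals are 95% intervals from the fit, and standard errors were derived from it. CPM uses TMM over all 16 libraries, and log2 CPM a prior count of 2. Depth was 20028302 to 29128858 counts per library, and the lowest count of a member was 58. Counts speak only of counting error. The procedure was tested on data simulated for URE against WT LSKs only, with independent libraries and no shift between replicate sets. That test does not cover such shifts. Gene lengths and overlaps came from GENCODE M21, which holds 54094 of the identifiers.

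Replicate numbers in the labels were taken as pairing the libraries, because, in every comparison, deviations from the group means correlated within each number (r from 0.24 to 0.71 over 15935 genes, every pair over 0.1). Libraries with different numbers gave r from -0.59 to 0.40, which overlaps that range. No replicates were near-identical, with a chi-square per degree of freedom of at least 29.6. The members and lists were chosen with earlier results of these data known. Library values and full tests are given for the called members, or for the 6 with the smallest adjusted p where fewer than 6 were called, and beyond 10 called members for the 5 with the largest rise and the 5 with the largest fall. Members given with values outside that rule (Mcm2 in LSKs and Pola1 in LSKs) were chosen after their values were seen. Alternatives were DESeq2 1.42.0, RLE size factors, TMM without genes that hold 1% or more of the counts, no filter, the replicate block, a joint fit, a batch term for replicates 1 and 4, a Y-linked covariate, no fold threshold and leaving out each library. Fits within replicates 1 and 4 and within 2 and 3 were added after the data were seen. Plots used matplotlib 3.10.9.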

Additional observations from a re-analysis of the deposited data

Results flagged for a closer look

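In 6 of the 188 sets of 4 libraries tested (47 genes in 4 groups), 1 library lay far from the other 3 by Dixon's ratio, where chance gives about 1 in 20. *Cdc45* stood at 89.5 CPM in WT GMP replicate 2, with 65.1 to 67.5 CPM in the 3 others. *Gins4* stood at 82.0 CPM in URE GMP replicate 1, against 93.6 CPM or more. *Rfc1* stood at 203 CPM in WT LSK replicate 1, against 177 to 178 CPM. *Pola1* stood at 280.2 CPM in URE GMP replicate 2, against 223 to 233 CPM. *Pola2* stood at 72.7 CPM in WT GMP replicate 3, against 125 to 133 CPM. *Chaf1a* stood at 54.8 CPM in WT GMP replicate 4, against 23.5 to 25.3 CPM, and it shares exonic bases with *Ubxn6*.

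The genotype difference in GMPs lay below that in LSKs in the interaction test with the replicate block (edgeR) for 6 genes. The log2 differences were -0.45 for *Mcm3* (adjusted p = 0.0477), -0.75 for *Pola1* (adjusted p = 0.0282), -0.79 for *Prim2* (adjusted p = 0.0129), -0.62 for *Rpa1* (adjusted p = 0.0434), -0.51 for *Rrm1* (adjusted p = 0.0401) and -0.82 for *Chaf1b* (adjusted p = 0.0146). In the edgeR fit of all 16 libraries with neither a block nor a batch term, under TMM scaling, none of the 6 passed.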

How the results depend on the processing

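Of the 529 planned refits of single named genes, 491 kept direction and side of the threshold, 22 lost and 16 gained the call, and none reversed. Counts of called genes moved by over 1.5 times as follows, and the cause was not tested. In URE against WT LSKs, 1 gene was called with the replicate block and 1 within replicates 1 and 4 (0 to 1 leaving out single libraries), against 0, where 9.46%, 6.42% and 6.14% of all genes were called. In GMPs no alternative gave a call at the fold threshold. In URE GMPs against LSKs, 5 became 8 with DESeq2, 11 with the block, 9 in the joint fit, 9 with the batch term, 8 within replicates 1 and 4 and 0 within replicates 2 and 3 (1 to 7 leaving out single libraries). For the interaction, 0 became 2 with DESeq2, 1 with RLE size factors, 6 with the block and 2 with the batch term (0 to 2 leaving out single libraries, 2 without URE LSK replicate 3 and 1 without URE GMP replicate 1). The share of all genes called moved too, from 21.8% to 15.1% with DESeq2, 31.9% with the block, 24.9% in the joint fit, 29.2% with the batch term, 28.7% within replicates 1 and 4 and 5.50% within 2 and 3 for URE GMPs against LSKs, and from 1.22% to 2.17%, 1.24%, 6.57% and 3.59% (DESeq2, RLE, block, batch term) for the interaction. The DESeq2 shares are over all genes with a p-value. Of the counts over all 47 genes the block moved no other by over 1.5 times. In WT GMPs against LSKs 23 calls became 17 to 30 leaving out single libraries and 33 with DESeq2, all higher in GMPs (of all genes 27.3%, 21.1% to 28.1% and 18.2%), and the median of 0.66 became 0.75 with DESeq2 and 0.79 within replicates 2 and 3 (0.66 to 0.80 leaving out single libraries). The share of promoters with an E2F motif was 32.4% with 8 letters and 43.2% with the 7-letter core. With 4 libraries a group, intervals were wide beside the differences between genotypes.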
